A study of Mus musculus with 18 samples.

Results

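Chemokine ligands are small secreted or membrane-anchored proteins that guide leukocytes along a concentration gradient, and each acts through 1 or more G protein-coupled receptors on the responding cell. CXCL9 and CXCL10 are ligands of CXCR3, a receptor of activated T cells and natural killer cells, and both genes are known as targets of interferons. The CC chemokines CCL2 and CCL12 act through CCR2 on monocytes, and CCL3, CCL4 and CCL5 attract monocytes and T cells. In demyelinating brain tissue, microglia and astrocytes are known sources of several of these ligands.

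The genes described here are 10 chemokine ligands of 20352 genes with a value in the data. They were chosen by name, with earlier results of these data known: Cxcl9, Cxcl10, Cxcl5, Cxcl16, Cx3cl1, Ccl2, Ccl12, Ccl3, Ccl4 and Ccl5. Each was read from the probe sets annotated to its symbol alone, and all 10 passed a filter on mean signal that left 16281 genes for testing. The tissue was the caudal end of the corpus callosum, the fibre tract that joins the hemispheres, and every sample went on 1 one-colour array. The groups were Trem2 knockout mice (TREM2-/-, here KO) of 12 weeks (6 arrays), wild-type mice (WT) of 12 weeks (5 arrays), KO of 6 weeks (3 arrays) and WT of 6 weeks (4 arrays). All 18 samples came from C57BL/6 mice whose food held 0.2% cuprizone (CPZ). This copper-binding compound damages oligodendrocytes so that myelin is lost, and none of the arrays used here shows normally fed tissue. Trem2 encodes a surface receptor of myeloid cells. The labels name the 6 and 12 weeks a stage, and they do not say whether this is age or time on CPZ. The exons removed in the KO are not named in the labels.

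Values are log2 signals, the median of a gene's probe sets in an array, and differences are KO minus WT or 12 minus 6 weeks on that scale, where 1 unit is a doubling. A gene "passed" when its p-value from 1 limma model over all 18 arrays, adjusted by Benjamini-Hochberg over the 16281 genes, was under 0.05. The labels do not tie arrays to separate animals. The p-values therefore describe variation among these arrays, and some of it may be technical. Trem2 itself ran from 4.79 to 5.59 in KO and from 6.83 to 7.86 in WT at 12 weeks, and from 5.42 to 6.05 in KO and from 6.44 to 8.42 in WT at 6 weeks, so the genotypes did not overlap at either stage. KO replicate 2 and WT replicate 4 of 6 weeks had the lowest array weights, at 0.446 and 0.503, where the other 16 ran from 0.702 to 1.496. KO replicate 2 stood apart in the chemokines as well, and the 6-week differences of members and their counts are given with and without it, the counts by a choice made after seeing the data. In bulk tissue, fewer cells of a type and less RNA per cell cannot be told apart.

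Because Cxcl10 was the CXCR3 ligand whose difference passed, and Cxcl9 the one with the larger difference, the 250 bases before their start sites are shown here from RefSeq (GRCm38.p6), each 5′ to 3′ along the gene's own strand. The capitals mark matches to a repeat bound by interferon regulatory factors (GAAA, any 2 bases, GAAA) and to a form of the NF-kB site (GGG, any 3 bases, TTCC). Both were searched on both strands.
Cxcl10, chr5:92348890-92349139, minus strand: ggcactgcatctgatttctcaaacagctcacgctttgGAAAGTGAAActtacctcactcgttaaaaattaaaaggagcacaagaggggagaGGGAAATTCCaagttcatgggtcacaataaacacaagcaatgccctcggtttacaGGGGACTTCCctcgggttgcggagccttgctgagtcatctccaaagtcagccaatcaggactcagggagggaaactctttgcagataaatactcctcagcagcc
Cxcl9, chr5:92328080-92328329, minus strand: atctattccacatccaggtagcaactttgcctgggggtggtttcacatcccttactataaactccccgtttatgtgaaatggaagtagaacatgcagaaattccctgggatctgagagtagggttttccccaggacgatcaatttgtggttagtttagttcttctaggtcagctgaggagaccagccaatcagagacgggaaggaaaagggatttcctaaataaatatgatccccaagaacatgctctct

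The Cxcl10 window held 1 match to the interferon repeat, beginning 213 bases before the start site, and 2 matches to the NF-kB form, beginning 159 and 104 bases before it. Among 27025 windows of the same length, 3.06% held the interferon repeat and 4.65% the NF-kB form. The Cxcl9 window held neither pattern, nor did those of Ccl12, Ccl3 and Cx3cl1, the other members with a window in the table. A match is a description of letters, and its absence says only that these letters are not in this window.

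At 12 weeks chemokine transcripts in CPZ-exposed white matter were compared between KO and WT. Cxcl5 and Cxcl10 passed and were higher in KO, by 3.50-fold and 3.23-fold. Cxcl9 and Ccl12 were higher in every KO array than in every WT array and did not pass the test, and the other 6 members overlapped between genotypes. In all, 2 of 10 members passed, both higher, where 0.43% of all genes tested passed in either direction, 0.356% higher and 0.0737% lower. By unadjusted p under 0.05, 5 of 10 members were higher and 0 lower, against 6.87% of all genes higher and 4.23% lower (11.1% in all). The median difference over the 10 members was 0.31 on the log2 scale, and over all genes it was 0.02. Because the members were chosen with earlier results known, their shares, here and below, are descriptions and no test of the members as a set.

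Cxcl10 encodes a CXCR3 ligand, made by glia and myeloid cells under interferon. Its signal in KO of 12 weeks ran from 5.60 through a median of 6.31 to 6.74, against 3.71, 5.56, 4.39, 4.34 and 4.82 in WT replicates 1 to 5. The lowest KO array lay just above WT replicate 2, and the other 4 WT arrays were well below both. The log2 difference was 1.69 ± 0.34 (SE, adjusted p = 0.0355; 95% confidence interval 0.98 to 2.41). All 4 of its probe sets were higher in KO, by 1.39 to 2.38.

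Cxcl9 encodes another CXCR3 ligand, known as a target of interferon gamma. It ran from 4.60 through a median of 6.25 to 6.45 in KO, against 3.52, 3.38, 4.29, 3.98 and 3.43 in WT replicates 1 to 5. KO replicate 2, at 4.60, was low for its group and still above every WT array. The log2 difference of 2.23 ± 0.51 (SE), 4.68-fold, missed the threshold (adjusted p = 0.0559). Its 7 probe sets differed widely, with 6 higher in KO and a range from −0.09 to 3.94, and with the brightest probe set alone in place of the median the difference was 3.94 (adjusted p = 0.00388). Over all alternatives the adjusted p of Cxcl9 ran from 0.0021 to 0.145. The mean of the WT arrays, 3.72, lay close to 3.41, the level at or below which genes were left out.

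Cxcl5 encodes a chemokine that attracts neutrophils through CXCR2. It ran from 5.74 through a median of 6.47 to 6.67 in KO, against 4.90, 5.21, 4.25, 4.23 and 4.10 in WT replicates 1 to 5. The groups did not overlap, and the gap between the nearest arrays was that between 5.74 and 5.21. The log2 difference was 1.81 ± 0.34 (SE, adjusted p = 0.0282; 95% confidence interval 1.09 to 2.52), and all 7 probe sets were higher in KO, by 0.85 to 2.55. Of 4 tested neutrophil markers 1 was higher and 3 lower in KO and 0 passed, and the summed signal of the 7 with a value ran from 82.0 to 171 in KO and from 107 to 252 in WT.

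Ccl12 encodes a mouse ligand of CCR2 and is the member of the CC group with the largest genotype difference at either stage. It ran from 6.41 through a median of 7.34 to 7.74 in KO of 12 weeks, against 4.40, 6.17, 5.61, 5.92 and 5.30 in WT replicates 1 to 5. Every KO array lay above every WT array. The log2 difference of 1.74 ± 0.41 (SE), 3.34-fold, did not pass (adjusted p = 0.0702). Over all alternatives its adjusted p ran from 0.00687 to 0.204, and its 4 probe sets were all higher, by 1.33 to 2.15. Non-overlapping groups with KO higher were found for 4 of 10 members, and for 1.7% of all genes tested. With KO lower it was found for 0 members and 0.762% of all genes.

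Ccl5, which encodes an attractant of T cells, differed by 0.49 ± 0.20 (adjusted p = 0.359) and its arrays overlapped, at 6.48 to 7.59 in KO and 6.39 to 6.85 in WT of 12 weeks. Its probe sets fell into 4 with KO higher by 1.02 to 1.61 and a pair at 0.16 and −0.31, so the median of the 6 stands between unlike values. With the mean of the probe sets as the value of the gene, Ccl5 did pass (0.88, adjusted p = 0.0279), and over all alternatives its adjusted p ran from 0.0279 to 0.549.

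The remaining 5 members did not pass at 12 weeks. Ccl2, the classical monocyte attractant, was at −0.44 (adjusted p = 0.653; 95% confidence interval −1.13 to 0.25), with 3.39 to 4.42 in KO and 3.77 to 5.06 in WT, so that both groups lay near the level of the filter. Ccl3 was at 0.12 (−0.61 to 0.86) and its genomic neighbour Ccl4 at −0.21 (−0.82 to 0.40). Cxcl16, a membrane-anchored ligand of CXCR6, was at −0.34 (−1.10 to 0.42). Cx3cl1, which encodes fractalkine, the neuronal ligand of the microglial receptor CX3CR1, was at −0.49 (−1.10 to 0.12). These intervals take in differences of up to about 1 log2 unit, so the arrays do not show that these 5 genes were at equal levels.

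**Figure D1:**
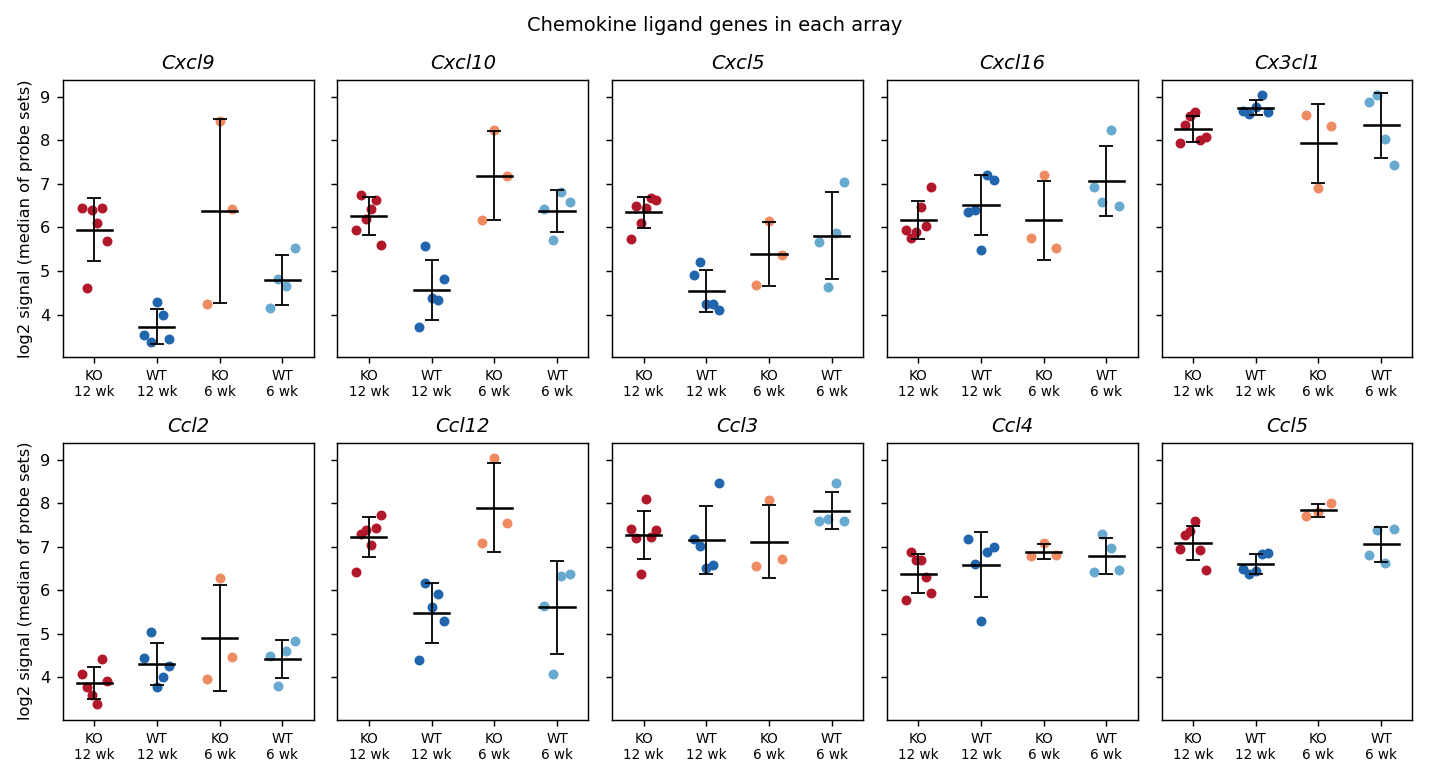
Log2 signal (median of a gene's probe sets, vertical axis) of the 10 chemokine genes in each of 18 arrays, in KO and WT of 12 weeks and KO and WT of 6 weeks. Points are arrays, horizontal lines group means and bars ± 1 SD. For Cxcl9, Cxcl10, Cxcl5 and Ccl12 the KO arrays of 12 weeks sit above the WT arrays of 12 weeks, and 1 KO array of 6 weeks reaches 8.45 for Cxcl9.

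Markers of some cell types moved with genotype too. The 9 microglial markers tested were all higher in KO at 12 weeks and 6 of them passed. Their summed signal ran from 2566 to 3839 in KO and from 1173 to 1542 in WT. The 8 astrocyte markers were all higher and 0 passed, with sums of 7861 to 9487 in KO and 5266 to 7178 in WT. Of 5 T and natural killer cell markers tested, 3 were higher and 0 passed. Sums over the 8 with a value ran from 98.0 to 161 in KO and from 88.6 to 142 in WT. Cd3e differed by 0.38 (adjusted p = 0.657), and the 2 lower in KO were Cd3g at −0.33 and Cd8a at −0.13. Of 6 monocyte and border macrophage markers tested, 4 were higher and 0 passed, with sums over the 8 with a value of 147 to 306 in KO and 127 to 246 in WT. Among them Mrc1, a marker of border macrophages, was at 1.37 (adjusted p = 0.0714) and Pf4 at 0.73 (adjusted p = 0.442). The 2 lower in KO were Ms4a7 at −0.23 and Lyve1 at −0.07. The 8 choroid plexus and ependyma markers were all higher with 0 passing, and 5 of 6 fibroblast markers were. Of 7 endothelium and pericyte markers tested 5 were higher, of 7 mature oligodendrocyte markers 5 and of 9 neuron markers 3, with 0 passing. The median differences of these lists were 0.19, 0.19 and −0.07. No marker had a value of 0 on this scale. What part these shifts have in the chemokine differences was not tested.

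At 6 weeks no member passed, where 0.043% of all genes did. By unadjusted p under 0.05, 3 of 10 members were higher in KO and 0 lower, against 3.26% and 2.17% of all genes (5.44% in all). The median difference was 0.29 over the members and −0.003 over all genes. The 3 were Ccl12, Ccl5 and Cxcl9. Without KO replicate 2 they were 2 higher (Ccl12 and Ccl5) and 2 lower (Cxcl16 and Ccl3), against 1.99% and 2.26% of all genes, still with none passing, and the median over the members was 0.056. With all arrays, Ccl12 and Ccl5 did not overlap between genotypes. Non-overlap with KO higher was found for 2.71% of all genes. With KO lower it was found for 0 members and 2.36% of all genes. Without KO replicate 2, Ccl3 (KO 6.57 and 6.71, WT from 7.60) and Cxcl16 (KO 5.76 and 5.54, WT from 6.50) did not overlap either, with KO lower. The share of all genes without that array was not computed. All 9 microglial markers were higher in KO at this stage too and 3 passed, with sums of 2528 to 7006 in KO and 1025 to 2194 in WT. Of the 8 astrocyte markers 7 were higher and 0 passed, with sums that did not overlap either, at 7827 to 12176 in KO and 5642 to 7708 in WT. The 5 T and natural killer cell, 4 neutrophil and 6 fibroblast markers tested were all higher in KO. All 7 mature oligodendrocyte and 9 neuron markers tested were lower. Higher were also 5 of 7 endothelium and pericyte, 5 of 6 monocyte and border macrophage and 3 of 8 choroid plexus and ependyma markers. In these lists 0 passed. T and natural killer cell sums ran from 131 to 154 in KO and from 94.6 to 131 in WT. The part of all these lists in the chemokine differences was not tested.

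Ccl12 was at 7.09, 9.04 and 7.55 in KO replicates 1 to 3 of 6 weeks, against 5.63, 4.09, 6.33 and 6.38 in WT replicates 1 to 4. All 3 KO arrays lay above all 4 WT arrays, and KO replicate 2 was the highest of the 18. The difference was 2.29 ± 0.52 (SE, 4.88-fold, adjusted p = 0.214), and 1.71 without KO replicate 2. All 4 probe sets were higher in KO, by 1.90 to 2.68.

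Ccl5 was at 7.70, 7.80 and 8.002 in KO replicates of 6 weeks, against 6.81, 7.39, 6.63 and 7.41 in WT replicates. It differed by 0.78 ± 0.25 (SE, adjusted p = 0.654), and by 0.79 without KO replicate 2. All 6 probe sets were higher in KO at this stage, by 0.36 to 1.17.

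The CXCR3 ligands at 6 weeks rested on few arrays. Cxcl9 was at 4.24, 8.45 and 6.44 in KO replicates 1 to 3, against 4.15, 4.82, 4.66 and 5.53 in WT replicates 1 to 4. KO replicate 1 lay among the WT arrays while replicate 2 was the highest of all 18. The difference was 1.59 ± 0.64 (SE, adjusted p = 0.822), and 0.55 without KO replicate 2. Cxcl10 was at 6.17, 8.23 and 7.17 in KO, against 6.42, 5.71, 6.81 and 6.58 in WT, with 1 KO array among the WT arrays. It differed by 0.81 ± 0.43 (SE, adjusted p = 0.940), and by 0.29 without KO replicate 2.

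Cxcl5 was at 4.67, 6.14 and 5.38 in KO replicates of 6 weeks, against 5.68, 4.63, 5.88 and 7.05 in WT replicates, and the genotypes overlapped. The difference of −0.41 (adjusted p = 0.999; 95% confidence interval −1.32 to 0.49), −0.79 without KO replicate 2, comes from a median taken within each array. Taken 1 by 1, 6 of 7 probe sets had a KO mean above the WT mean, by at most 0.41, and the seventh was at −0.55. Ccl3 (−0.71), Cxcl16 (−0.90), Cx3cl1 (−0.41), Ccl2 (0.48) and Ccl4 (0.10) did not pass (adjusted p from 0.940 to 0.999).

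Without KO replicate 2, Cxcl16 was at −1.42, Ccl3 at −1.19 and Ccl4 at 0.0036, and none passed (adjusted p from 0.994 to 1.000). Ccl2 was then at −0.21 and Cx3cl1 at 0.11, on the other side of 0 from their values with it. That array held 6.29 for Ccl2, where the rest ran up to 5.06. It also had the highest summed microglial signal of the 18 (7006), the highest astrocyte sum (12176) and the lowest neuron sum (1505). Their part in the chemokine values of that array was not tested.

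**Figure D2:**
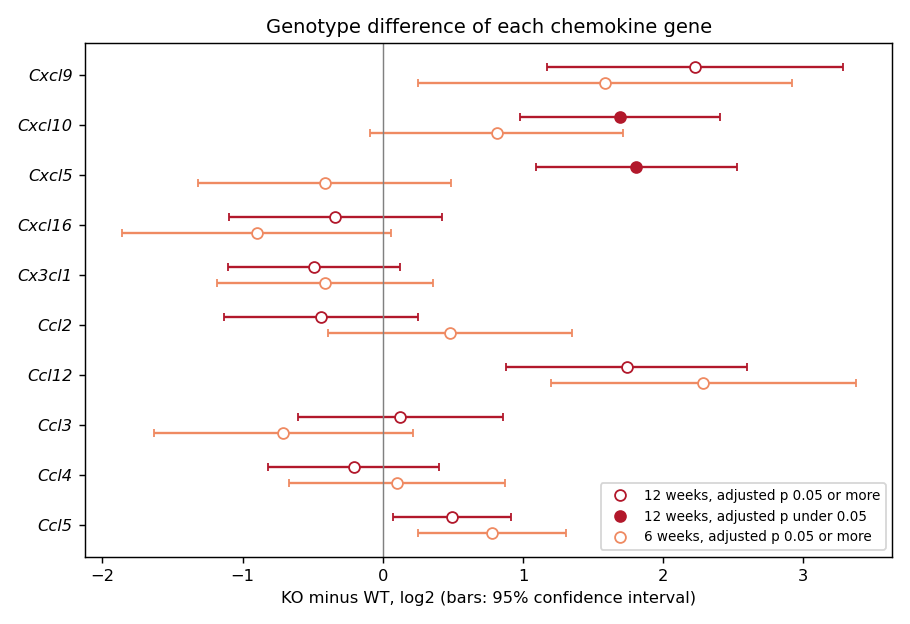
KO minus WT (log2, horizontal axis) of each chemokine gene at 12 and 6 weeks from the limma model, with 95% confidence intervals. Filled points passed at an adjusted p under 0.05. Cxcl10 and Cxcl5 at 12 weeks are the filled points, at 1.69 and 1.81.

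The genotype difference was then compared between stages. The interaction, the difference at 12 weeks minus that at 6 weeks, passed for none of the 10 members and for 0% of all genes by limma, and 1 member, Cxcl5, had an unadjusted p under 0.05, against 5.19% of all genes in either direction (2.87% higher, 2.32% lower). For Cxcl5 it was 2.22 ± 0.55 (SE, adjusted p = 0.698; unadjusted 6.86e-04 in limma). For Cxcl10 it was 0.88 (95% confidence interval −0.27 to 2.03) and for Cxcl9 0.64 (−1.06 to 2.34). Without KO replicate 2 of 6 weeks these were 2.59 for Cxcl5 (adjusted p = 0.575), 1.401 for Cxcl10 and 1.68 for Cxcl9 (adjusted p = 0.643 each). Then 4 members, these 3 and Ccl3, had an unadjusted p under 0.05, all higher, against 3.78% of all genes higher and 3.15% lower, and none passed. With or without that array, no interaction of a member passed.

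Between stages, no member passed in WT, where 0.0184% of all genes did, or in KO, where 0.00614% did. In the order of the sample records, all arrays of 6 weeks come before those of 12 weeks. No label names a batch, and any batch that followed this order could not be told apart from stage. By unadjusted p under 0.05, 2 members were lower and 0 higher at 12 than at 6 weeks in WT, against 4.51% lower and 3.96% higher of all genes (8.48% in all). In KO 3 were lower and 1 higher, against 2.78% lower and 4.7% higher (7.49% in all). Without KO replicate 2 of 6 weeks, 3 were lower and 0 higher in WT, against 4.86% lower and 4.61% higher of all genes. In KO 1 was then lower and 1 higher, against 2.53% lower and 4.46% higher of all genes. Cxcl10 in WT stood at 3.71 to 5.56 at 12 weeks and at 5.71 to 6.81 at 6 weeks, with no overlap. Its difference was −1.82 ± 0.38 (SE, adjusted p = 0.137). Cxcl5 in WT was at −1.27 ± 0.38 (SE, adjusted p = 0.320) with overlapping arrays.

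In KO, Cxcl10 was at −0.94 ± 0.40 (SE, adjusted p = 0.629) between stages, and −0.42 without KO replicate 2 of 6 weeks. Ccl5 in KO ran from 6.48 to 7.59 at 12 weeks and from 7.70 to 8.002 at 6 weeks, with no overlap (−0.74 ± 0.23, SE, adjusted p = 0.478). Non-overlap with 12 weeks lower was found for 1 member in each genotype, and for 1.31% of all genes in WT and 1.62% in KO. With 12 weeks higher it was found for 0 members, and for 1.19% of all genes in WT and 2.28% in KO. These counts are with all arrays. Without KO replicate 2 of 6 weeks, Cxcl5 in KO did not overlap, with 12 weeks higher (4.67 and 5.38, against 5.74 or more). Cxcl16 in KO was then also free of overlap, narrowly, with up to 5.7552 at 6 weeks and from 5.7553 at 12 weeks. The share of all genes without that array was not computed. Ccl2 in KO was at −1.04, and −0.35 without KO replicate 2. Cxcl5 in KO was at 0.95 (adjusted p = 0.627), above 0 where its value in WT was below 0.

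Taking the 4 groups of each gene by their mean, most neighbours in the order overlapped. Cxcl10 ran 7.19 ± 1.03 in KO of 6 weeks, 6.38 ± 0.47 in WT of 6 weeks, 6.26 ± 0.43 in KO of 12 weeks and 4.56 ± 0.69 in WT of 12 weeks (SD, n = 3, 4, 6 and 5), and the last step alone was free of overlap. Cxcl9 ran 6.38 ± 2.10 in KO of 6 weeks, 5.95 ± 0.72 in KO of 12 weeks, 4.79 ± 0.57 in WT of 6 weeks and 3.72 ± 0.40 in WT of 12 weeks, with every neighbouring pair overlapping. Ccl12 ran 7.90 ± 1.02 and 7.22 ± 0.45 in KO of 6 and 12 weeks, then 5.61 ± 1.07 and 5.48 ± 0.69 in WT of 6 and 12 weeks, and the step between genotypes was free of overlap. For Cxcl5 the KO of 12 weeks stood first (6.35 ± 0.36) and the WT of 12 weeks last (4.54 ± 0.49), with both groups of 6 weeks between them and all neighbours overlapping.

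The CXCR3 ligands were set against the CC chemokines array by array. Each gene was centred on its mean over the 18 arrays, and the mean of Cxcl9 and Cxcl10 was taken minus the mean of Ccl2, Ccl3, Ccl4, Ccl5 and Ccl12. At 12 weeks this balance ran from −0.01 to 0.88 in KO and from −1.52 to −0.38 in WT, with means of 0.54 ± 0.39 (SD, n = 6) and −1.08 ± 0.45 (SD, n = 5). The genotypes did not overlap. The CXCR3 side held most of it, with centred means of 0.54 in KO and −1.41 in WT, where the CC side had 0.01 and −0.33 and its arrays overlapped (−0.24 to 0.20 in KO, −0.83 to 0.01 in WT). With Ccl12 taken out of the CC side, a choice made after its values were seen, the CC means were −0.17 in KO and −0.17 in WT.

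At 6 weeks the balance was −0.41, 1.49 and 0.90 in KO replicates 1 to 3, against −0.10, 0.03, −0.06 and 0.32 in WT replicates 1 to 4. One KO array lay below all WT arrays and the other 2 above them. No test is given for these scores, because the genes were chosen with earlier results of these data known. The CC group was itself uneven: Ccl12 lay with the CXCR3 ligands in its genotype difference at 12 weeks, and Ccl2, its fellow CCR2 ligand, had a difference of −0.44.

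**Figure D3:**
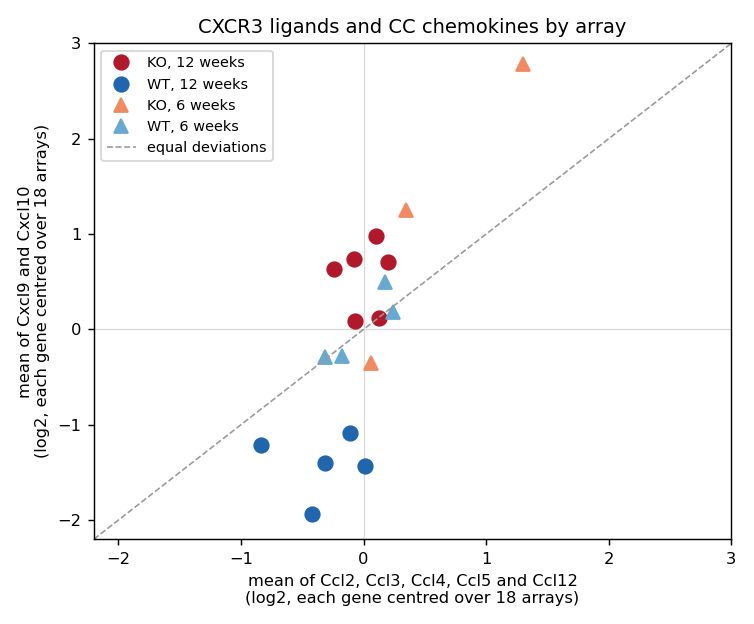
Mean centred log2 value of Cxcl9 and Cxcl10 (vertical axis) against that of 5 CC chemokines (horizontal axis), 1 point per array, with a dashed line where both deviations are equal. The KO arrays of 12 weeks lie at or above the line and the WT arrays of 12 weeks below it, while the CC values of the 2 groups overlap.

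The probe sets of a gene sit at different places in its transcript and need not move alike. At 12 weeks all probe sets of Cxcl10 (4), Cxcl5 (7) and Ccl12 (4) were higher in KO, as were 6 of 7 of Cxcl9. None of 5 was higher for Ccl4 and for Cx3cl1, with differences from −0.78 to −0.02 and from −0.56 to −0.09. Cxcl16 was split, with 5 of 10 probe sets higher and a range from −0.77 to 0.90, and 3 of those 5 had a mean under 5 in every group. A further 2 probe sets that Cxcl16 shares with Zmynd15 were not used.

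**Figure D4:**
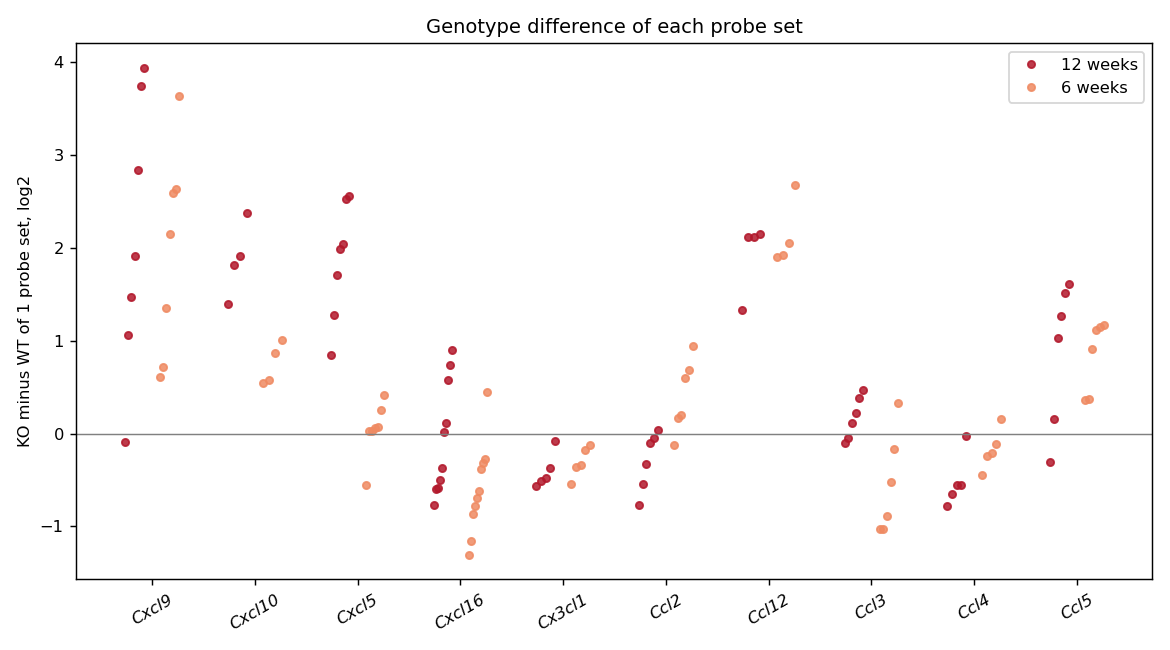
KO minus WT (log2, vertical axis) of each single probe set of the 10 chemokine genes, at 12 weeks (left of each pair) and 6 weeks (right). Probe sets of Cxcl10, Cxcl5 and Ccl12 at 12 weeks all lie above 0, and those of Cxcl9 spread from −0.09 to 3.94.

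Other genes of the chemokine system were examined from lists. Of 26 further chemokine ligands 19 were tested and 0 passed in either genotype comparison, with median differences of −0.001 at 12 weeks and 0.04 at 6 weeks. By unadjusted p under 0.05, 3 were higher and 1 lower in KO at 12 weeks, against 6.87% of all genes higher and 4.23% lower. Those with the smallest p at 12 weeks were Ccl1, a CCR8 ligand (−0.60, adjusted p = 0.203), Cxcl13, the B cell attractant that acts through CXCR5 (1.46, adjusted p = 0.231), and Cxcl12, the ligand of CXCR4 (0.57, adjusted p = 0.420). At 6 weeks they were Ccl6 (−0.96), Pf4 (0.77) and Ccl1 (0.38), with adjusted p of at least 0.940.

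Of 18 chemokine receptors 8 were tested and 0 passed. Cx3cr1, the fractalkine receptor and a microglial marker, was at 1.01 ± 0.23 (SE, adjusted p = 0.0578) at 12 weeks and at 1.03 (adjusted p = 0.489) at 6 weeks, while Cx3cl1, its ligand, was at −0.49 and −0.41. Cxcr3, the receptor of CXCL9 and CXCL10, was at −0.18 (adjusted p = 0.707; 95% confidence interval −0.52 to 0.16) at 12 weeks and at 0.41 (adjusted p = 0.940) at 6 weeks. Ccr7, which guides lymphocytes and dendritic cells to lymph nodes, was at −0.27 at 12 weeks (adjusted p = 0.695). Cxcr6, the receptor of CXCL16, was at −0.80 at 6 weeks (adjusted p = 0.784).

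Decoy receptors, which bind chemokines without signalling to movement, and the proteases that shed CX3CL1 and CXCL16 from the membrane gave 6 tested genes and 0 that passed. Ackr2, a decoy of inflammatory CC chemokines, was at −0.68 (adjusted p = 0.282), Ackr3 at 0.37 (adjusted p = 0.567) and Ackr4 at −0.22 (adjusted p = 0.672) at 12 weeks. The sheddase gene Adam10 was at 0.37 (adjusted p = 0.940) and Ccrl2 and Ackr3 were at −0.36 and −0.15 at 6 weeks.

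Regulators of interferon and NF-kB signalling gave 14 tested genes, of which 0 passed at either stage. At 12 weeks 10 were above 0, with a median of 0.22. By unadjusted p under 0.05, 2 were higher and 1 lower, against 6.87% of all genes higher and 4.23% lower. Il1b, a cytokine that activates NF-kB, was at −0.66 (adjusted p = 0.172), the interferon gamma receptor gene Ifngr1 at 0.49 (adjusted p = 0.408) and Stat2, of the type I interferon pathway, at 0.54 (adjusted p = 0.428). At 6 weeks 11 were above 0, with a median of 0.30, and those with the smallest p were Ifngr1 (0.67), Tnf (0.62) and Nfkbia (0.46), with adjusted p from 0.822 to 0.943.

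Within groups, the members were described by Pearson correlations of their deviations from the group means over the 18 arrays, with no test. Arrays share their RNA composition and any outlying array. Cxcl10 varied with Ccl12 (r = 0.72) and Ccl2 (r = 0.69), and Cxcl5 with Ccl2 and Ccl12 (r = 0.71 each). Without both arrays of lowest weight these 4 values were 0.62, 0.52, 0.68 and 0.59. The CXCR3 ligands Cxcl9 and Cxcl10 correlated at 0.41, and at 0.01 without those arrays.

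Cx3cl1 ran opposite to Ccl2 (r = −0.83, and −0.69 without those arrays) and to Cxcl5 (r = −0.73 and −0.42). Its lowest arrays of 6 weeks were KO replicate 2 (6.90), WT replicate 4 (7.43) and WT replicate 3 (8.03), and the same arrays had the lowest summed neuron signals of the 18, at 1505, 2221 and 4116, where the rest ran from 5500 to 8896. KO replicates 1 (7.93) and 5 (8.02) of 12 weeks were below the last of these in Cx3cl1 without so low a neuron sum. What part neuron content has in Cx3cl1 was not tested.

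Over all genes tested, those whose deviations were most like Cxcl10's were Krcc1 (r = 0.87), Pygl, a glycogen phosphorylase (r = 0.85), and Atp6v0e, a subunit of the vacuolar proton pump (r = 0.85). Without both arrays of lowest weight these were 0.82, 0.81 and 0.84. For Cxcl5 the most alike genes were Mgst1, a microsomal glutathione transferase (r = 0.90), Vamp8, a SNARE protein of vesicle fusion (r = 0.89), and Prxl2a (r = 0.85). Without those arrays these fell to 0.81, 0.76 and 0.72. For Cxcl9 the most alike genes were Phyh (r = 0.84), Parp3 (r = 0.82) and Vps28 (r = 0.81), and without those arrays these fell to 0.68, 0.57 and 0.66. For Ccl5 the most alike genes were Dph7 (r = 0.81), Pspn (r = 0.78) and Smco1 (r = 0.78), and without those arrays these were 0.82, 0.93 and 0.77. Each r was picked as among the highest over all genes tested, and such a choice alone gives high values. None of these 12 genes passed in either genotype comparison.

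The call of Cxcl10 and Cxcl5 at 12 weeks rested on all arrays together. Leaving out 1 array in turn, both lost it in 9 of 11 cases among the arrays of 12 weeks, the exceptions being WT replicate 2 and KO replicate 1, while the differences kept to 1.48 to 1.94 for Cxcl10 and 1.70 to 1.98 for Cxcl5. The sample records of 12 weeks list WT then KO and again WT then KO, and were split there into 2 runs. This split comes from the order of the records alone, and no label calls the runs a batch. Within the 2 runs the difference was 1.65 and 1.71 for Cxcl10, 1.06 and 2.39 for Cxcl5, 2.37 and 2.17 for Cxcl9 and 1.75 and 1.80 for Ccl12. In females and males, read from Xist and Y-linked genes, the difference was 1.59 and 1.77 for Cxcl10 and 1.52 and 1.92 for Cxcl5. Within each run KO and WT differed in sex, so that the run and sex of an array cannot be told apart within a genotype.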

How the data were processed

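Log2 signals of 241576 probe sets on 18 arrays, as deposited by the authors, spanned 0.732 to 13.7 with array medians of 5.26 to 5.41. The authors' background correction, normalization and summary were not stated in any label or file header, and the log2 scale was inferred from this range. RNA was extracted with RNeasy columns, amplified with a NuGEN Ovation Pico kit and biotin-labelled, per the labels' protocols. The number of arrays limits the precision.

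Of the probe sets, 212097 had 1 gene symbol in the platform annotation, and 2742 old symbols were updated through RefSeq GRCm38.p6 synonyms. Members had 4 to 10 probe sets. A gene's value is their median per array. The 20% of genes with the lowest mean (3.41 or less) were left out. Groups come from the sample titles. One limma fit (3.58.1, R 4.3.3) of 4 group means had 14 residual and 5.61 prior degrees of freedom. The steps were tested on simulated data. Python 3.11.15 prepared tables and plots.

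Members, gene lists and the naming rule (all members, Trem2, up to 3 genes per list and genotype comparison by smallest p, 3 most alike genes for each of 4 members) were chosen with earlier results of these data known. Cd3e, Mrc1 and, at 12 weeks, Pf4 were named in addition, as markers, after their values were seen. So were Cd3g, Cd8a, Lyve1 and Ms4a7, the markers tested in the same lists that were lower in KO at 12 weeks. A further search for a letter pattern in the promoters is not reported here. Same-numbered KO and WT arrays deviated with correlations of −0.36 to 0.24 at 6 and 0.02 to 0.10 at 12 weeks, so the numbers were not taken as pairs. Alternatives are given in the closing section.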

Additional observations from a re-analysis of the deposited data

Results flagged for a closer look

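Of 30 groups of 4 to 6 arrays examined for a lone outlying array (Dixon's test, which marks about 1 in 20 by chance), 1 was found. WT replicate 3 of 6 weeks had Ccl3 at 8.47, and the other 3 WT arrays of that stage lay between 7.60 and 7.65. The same array was the highest of its group for Cxcl16 (8.24) and Trem2 (8.42). The groups of 3 arrays, KO of 6 weeks, were not examined this way.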

How the results depend on the processing

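The count of members that passed for KO against WT at 12 weeks, 2 in the limma model as described, was 4 at an adjusted p under 0.10, 5 with the mean of the probe sets, 4 with the brightest probe set, 4 with array weights and 4 with only the groups compared. It was 3 with the lowest 40% of genes left out and 3 with trended, robust variances, 1 with sex and run as covariates (Cxcl5), and 4 without both arrays of lowest weight, a choice added after seeing the data. Leaving out 1 array in turn it ran from 0 to 4, with 0 for WT replicates 1, 3, 4 and 5 and KO replicates 2 to 6 of 12 weeks, and 4 for WT replicate 4 or KO replicate 2 of 6 weeks. All genes passing at 12 weeks, 70 in the model as described, numbered 233 with only the groups compared, 215 without both arrays of lowest weight, 190 with array weights, 153 at the looser threshold, 107 with the mean of the probe sets, 42 after quantile normalization, and 15 to 126 leaving out 1 array. With trended, robust variances 96 genes passed at 12 weeks, and with the lowest 40% of genes left out 83 did. The brightest probe set gave 60, and sex and run as covariates gave 51. The counts of 0 at 6 weeks, between stages and for the interaction stayed 0 under every alternative run. The balance of CXCR3 ligands over CC chemokines at 12 weeks, KO minus WT, was 2.47 with the brightest probe set, against 1.62 with the median of the probe sets. The causes of these changes were not tested, and the number of arrays, 3 and 4 at 6 weeks, limits what can be called.

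With the replicate number as a block, 1 member passed at 12 weeks (Cxcl10, 1.82, adjusted p = 0.047), Cxcl5 did not (1.75, adjusted p = 0.098), and 21 genes passed in all. The block gave arrays of the same number 1 shared term over both stages and genotypes, which is not a pairing within a stage. The numbers were not taken as pairs. As a hint from the data and not the design, 9 of 10 arrays of 12 weeks and 1 of 6 of 6 weeks correlated best with their own number. Under the block Cxcl16 and Ccl3 between stages in KO were −0.30 and −0.060.

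Signs changed only for differences that did not pass. Run as a covariate separates only the arrays of 12 weeks, so it cannot correct a difference between stages for run. For KO against WT at 6 weeks these were Cxcl5 (0.041 with the mean and 0.028 with the brightest probe set), Ccl4 (−0.17 and −0.20, and −0.10 without both low-weight arrays) and Ccl2 (−0.082 without both), and at 12 weeks Ccl3 (−0.020 with array weights). Between stages in WT they were Ccl2 (0.025 with the brightest probe set, 0.043 with run, 0.090 with sex and run, 0.0096 without both low-weight arrays), Ccl4 (0.026 with the brightest) and Ccl12 (0.13 without both). Between stages in KO they were Cxcl16 (−0.029 after quantile normalization, −0.016 with sex, −0.21 with run, −0.22 with both covariates), Ccl3 (−0.019 with run, −0.036 with both covariates), Cxcl9 (0.043 with array weights, 0.61 without both low-weight arrays) and Cx3cl1 (−0.19 without both). For the interaction they were Ccl5 (0.031 with the mean), Ccl12 (0.20) and Cx3cl1 (0.061 with the brightest).

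Leaving out 1 array, ranges that crossed 0 were, for KO against WT at 6 weeks, −0.81 to 0.00085 (Cxcl5), −0.21 to 0.94 (Ccl2), −0.024 to 0.27 (Ccl4) and −0.73 to 0.11 (Cx3cl1), and at 12 weeks −0.038 to 0.45 (Ccl3). Between stages in WT they were −0.33 to 0.012 (Ccl2), −0.35 to 0.13 (Ccl4) and −0.64 to 0.14 (Ccl12). Between stages in KO they were −1.50 to 0.61 (Cxcl9), −0.30 to 0.53 (Cxcl16), −0.11 to 0.64 (Ccl3) and −0.19 to 0.65 (Cx3cl1), and for the interaction −0.43 to 1.68 (Cxcl9), −0.95 to 0.027 (Ccl12) and −0.60 to 0.24 (Cx3cl1). For single genes, 593 values under other settings and 847 leaving out 1 array kept their direction and side of the threshold. The others were 2 and 18 that lost a call, 13 and 6 that gained one, and 27 and 29 that changed sign.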
